A study of Mus musculus with 6 samples.

Results

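Transcripts that mark the olfactory bulb were followed in RNA from whole mouse brain. Omp, Cdhr1, Doc2g, Eomes, Tbx21, Calb2, Sp8 and Tbr1, markers of olfactory axons, of mitral and tufted cells and of bulb interneurons, were taken by gene symbol from the deposited tables, and all 8 were found among 27378 genes listed. The study compared wild-type male C57BL/6J mice, an inbred laboratory strain, after 28 days of dosing through the nose. Control mice (n = 3) were given sterile distilled water and PS mice (n = 3) polystyrene nanoplastics, very small plastic particles. The nose was the route of delivery in both groups, and no group without nasal dosing is among the libraries. The sources used here do not give the age of the mice, nor do they say that each library came from a separate animal, so p-values reflect the spread among libraries, which may be partly technical. Each library rested on 39239183 to 40335590 reads. Markers of several regions were present, among them the excitatory neuron gene Slc17a7 (297 ± 43.2 FPKM in control), the GABA synthesis gene Gad1 (113 ± 9.83) and the cerebellar gene Pcp2 (49.4 ± 5.04, all SD, n = 3). Levels are in FPKM, which counts sequenced fragments relative to gene length and sequencing depth.

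The olfactory bulb is the first brain station of the sense of smell. Axons of olfactory sensory neurons run from the nasal lining into the bulb and end in glomeruli, where they contact mitral and tufted cells, the excitatory output neurons that project to olfactory cortex. Periglomerular and granule cells, inhibitory interneurons that are renewed in adult rodents, shape that output. Because the bulb lies directly behind the nasal roof, its axons are a known path by which material can pass from the nose to the brain.

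Upstream sequences are shown for 5 of the genes because Cdhr1, Doc2g, Eomes, Tbx21 and Tbr1 are all expressed by the output neurons of the bulb. Each is the stretch of 250 bases before an annotated start, from RefSeq on GRCm38.p6, a build other than the GRCm39 named for the deposited values. Capitals mark matches on either strand to TAATTA (homeodomain core), GGTGTGA (T-box half-site core), the GC box GGGCGG or the pentamer CCAAT, and overlapping GC boxes run together.
Cdhr1, chr14:37098348-37098597, minus strand: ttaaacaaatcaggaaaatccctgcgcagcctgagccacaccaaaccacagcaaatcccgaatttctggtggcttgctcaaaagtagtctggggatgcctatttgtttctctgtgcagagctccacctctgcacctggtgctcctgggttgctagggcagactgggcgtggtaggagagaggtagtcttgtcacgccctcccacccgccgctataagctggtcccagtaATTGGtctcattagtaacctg
Doc2g, chr19:4003135-4003384, plus strand: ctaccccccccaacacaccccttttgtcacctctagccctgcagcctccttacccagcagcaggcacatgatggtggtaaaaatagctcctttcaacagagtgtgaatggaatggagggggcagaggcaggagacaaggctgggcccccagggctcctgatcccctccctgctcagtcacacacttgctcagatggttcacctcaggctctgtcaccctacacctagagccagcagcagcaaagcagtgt
Eomes, chr9:118477939-118478188, plus strand: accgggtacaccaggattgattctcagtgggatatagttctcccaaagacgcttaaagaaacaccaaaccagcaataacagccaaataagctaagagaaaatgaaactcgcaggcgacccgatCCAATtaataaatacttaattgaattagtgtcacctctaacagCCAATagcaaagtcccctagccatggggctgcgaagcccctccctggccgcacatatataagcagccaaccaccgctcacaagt
Tbx21, chr11:97115332-97115581, minus strand: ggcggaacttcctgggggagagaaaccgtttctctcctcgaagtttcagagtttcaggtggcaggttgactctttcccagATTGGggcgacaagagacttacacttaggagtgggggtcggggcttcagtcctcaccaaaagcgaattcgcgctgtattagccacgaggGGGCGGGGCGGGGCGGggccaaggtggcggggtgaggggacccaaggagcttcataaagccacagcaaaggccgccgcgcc
Tbr1, chr2:61804203-61804452, plus strand: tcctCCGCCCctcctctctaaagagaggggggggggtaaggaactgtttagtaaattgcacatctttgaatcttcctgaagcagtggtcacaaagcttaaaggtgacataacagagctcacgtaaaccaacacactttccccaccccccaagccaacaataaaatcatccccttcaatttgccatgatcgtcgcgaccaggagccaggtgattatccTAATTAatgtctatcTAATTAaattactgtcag
Matches to CCAAT numbered 2 for Eomes, 1 for Cdhr1 and 1 for Tbx21, against at least 1 in 33.8% of 32817 annotated windows of this length. Tbx21 held 3 overlapping GC boxes and Tbr1 held 1, against 32.7% of windows with any. TAATTA was found in the Tbr1 window alone among these 5, where it occurred 2 times, against 4.85% of windows. None of the 5 held GGTGTGA (3.33% of windows). Such matches are letters in a window and not measured binding.

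The 8 genes spanned a wide range of levels. Over the 6 libraries the mean was highest for Calb2 (107.4 FPKM), followed by Doc2g (15.5), Tbr1 (12.7), Cdhr1 (11.9), Eomes (3.65), Omp (2.94), Sp8 (1.74) and Tbx21 (0.754). Calb2 stood above every other gene in every library. The ranges of Doc2g, Tbr1 and Cdhr1 overlapped, although Doc2g exceeded Cdhr1 within each of the 6 libraries. Cdhr1 stood above Eomes in every library, while the ranges of Eomes and Omp, Omp and Sp8, and Sp8 and Tbx21 overlapped. Within each of the 6 libraries, Omp exceeded Sp8 and Sp8 exceeded Tbx21, and Omp exceeded Eomes only in PS library 2. The reads behind a value ran from 5392 to 6592 for Calb2 and from 52 to 104 for Tbx21, so counting error weighs most on Tbx21.

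**Figure D1:**
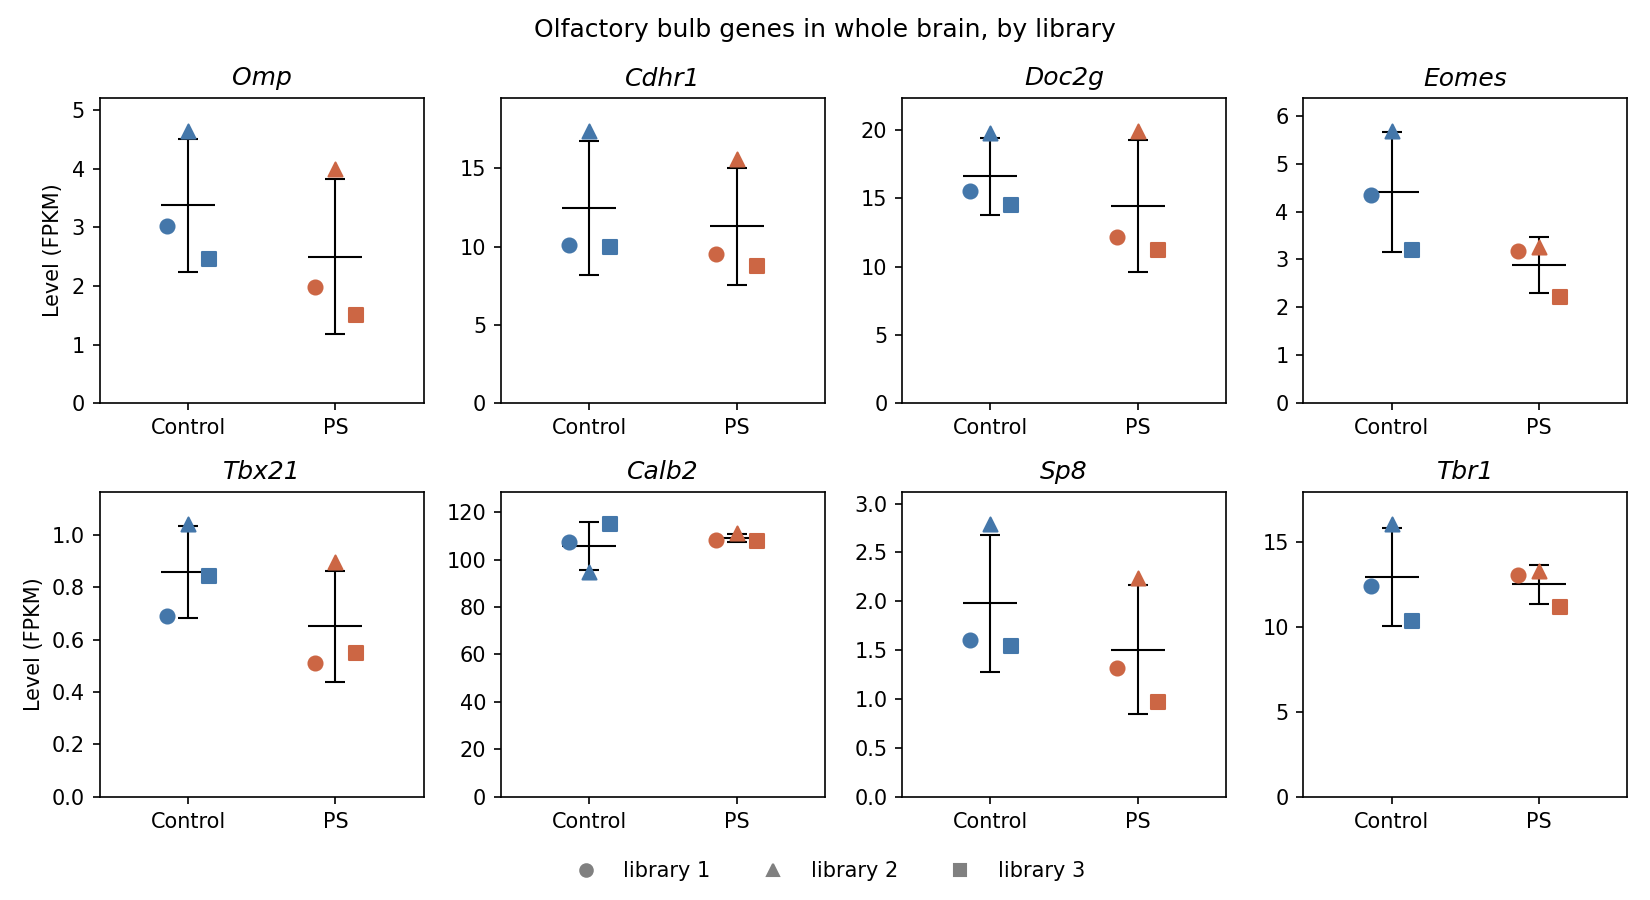
Level of each gene in FPKM (vertical axis, from 0) in the control and PS libraries; symbols give the library number, and the horizontal bar and whiskers are the group mean ± SD (n = 3). For every gene except Calb2 the library numbered 2 is the highest of its group in both groups, and the groups overlap for all 8.

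Omp encodes olfactory marker protein of mature olfactory sensory neurons, whose cell bodies lie in the nose and whose axons carry some of the transcript into the bulb. It measured 3.03, 4.65 and 2.46 FPKM in control libraries 1, 2 and 3 and 1.98, 3.999 and 1.51 in PS libraries 1, 2 and 3. The 2 lowest values were in PS, but PS library 2 stood above control libraries 1 and 3. The group means were 3.38 ± 1.13 and 2.497 ± 1.32 FPKM (SD, n = 3), and the difference on the log2(FPKM + 1) scale was -0.36 (SE 0.25, 95% interval from -0.93 to 0.21, limma adjusted p = 0.945). Of 14 other genes of sensory neurons, 9 had a mean of at least 1 FPKM, of which 6 had positive and 3 negative differences (median 0.03 on the log2 scale, none called). Another 3, Cnga4, Stoml3 and Rtp1, were tested at a mean of at least 0.1 FPKM and were not called either. The lowest p of these was for Rtp1 (log2 difference -0.16, unadjusted p = 0.0647, adjusted p = 0.851). Of the 9, Gng13, Gnal and Adcy3 had control means of 82.2, 40.1 and 11.6 FPKM, far above Omp. The part of cells other than sensory neurons in the values of this list was not tested. Library 2 was the highest of both groups in 1 of the 9 genes, S100a5, a calcium-binding protein gene picked here after its values were seen. S100a5 measured 6.69, 9.71 and 4.68 FPKM in control and 5.77, 7.89 and 1.81 in PS (log2 difference -0.49, adjusted p = 0.951). Nqo1, a quinone reductase gene used as a zonal marker of the nasal lining and also widely expressed, had the lowest unadjusted p of the list (0.0351) and was higher in PS, at 2.13 ± 0.321 and 2.68 ± 0.265 FPKM (adjusted p = 0.801).

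Most genes that mark cells of the nasal lining itself were near 0. The odorant channel subunit Cnga2, which defines sensory neurons, lay between 0.0138 and 0.0767 FPKM in all libraries. Of 10 genes of supporting and gland cells of the nasal lining, 8 had a mean under 0.1 FPKM. The other two were Gstm2, a glutathione S-transferase gene, whose control and PS means were 2.99 ± 0.301 and 2.59 ± 0.814 FPKM (-0.18 on the log2 scale, adjusted p = 0.973), and Sec14l3, at 0.275 ± 0.168 and 0.160 ± 0.0316 FPKM (-0.13, adjusted p = 0.942). Among the 8, the odorant-binding protein gene Obp1a was listed at 0 in 4 of 6 libraries and reached at most 0.0673 FPKM. The 157 odorant receptor genes with an Olfr symbol summed to 2.93 to 3.36 FPKM in control and 2.53 to 3.93 in PS libraries, and 1 of them, Olfr287, gave 0.992 to 1.41 FPKM of that in each library. Receptor genes listed under other symbols were not counted, so the sum is not that of the whole receptor family.

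Mitral and tufted cells are marked most sharply by Cdhr1, a cadherin-related adhesion gene, and by Doc2g, which encodes a C2-domain protein. Cdhr1 measured 10.1, 17.4 and 9.95 FPKM in control and 9.53, 15.6 and 8.76 in PS libraries. Library 2 stood apart in each group, at 1.74 times the mean of libraries 1 and 3 in control and 1.70 times in PS. Beside this spread the difference between groups was small, at 12.5 ± 4.26 and 11.3 ± 3.74 FPKM (log2 difference -0.13, SE 0.24, 95% interval from -0.66 to 0.41, limma adjusted p = 0.986). Without control library 2 the sign of this difference turned, to 0.12, and without PS library 3 it was 0.016. Doc2g measured 15.6, 19.8 and 14.5 FPKM in control and 12.2, 19.96 and 11.2 in PS libraries. Both values of library 2 were nearly alike, while PS libraries 1 and 3 lay below every control value (log2 difference -0.22, SE 0.19, 95% interval from -0.66 to 0.21, adjusted p = 0.973).

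The 3 genes of the Tbr1 subfamily of T-box transcription factors, Eomes, Tbx21 and Tbr1, are all used by bulb output neurons. Eomes, also called Tbr2, measured 4.36, 5.69 and 3.19 FPKM in control and 3.18, 3.25 and 2.22 in PS libraries. Only control library 3 and PS library 2 kept the groups from separating. The means were 4.41 ± 1.25 and 2.88 ± 0.577 FPKM (SD, n = 3), 34.7% lower in PS, with a log2 difference of -0.46 (SE 0.17, 95% interval from -0.85 to -0.08). Its unadjusted p of 0.0227 was the only one of the 8 under 0.05, and it did not pass over all genes (limma adjusted p = 0.738). Tbx21, also called T-bet, measured 0.691, 1.04 and 0.840 FPKM in control and 0.509, 0.894 and 0.548 in PS libraries. Its mean lay under the 1 FPKM needed for the main test, so it was tested among the 16542 genes with a mean of at least 0.1 (log2 difference -0.17, SE 0.11, 95% interval from -0.41 to 0.07, adjusted p = 0.921). The mean of Tbx21 was 24.1% lower in PS. On the log2(FPKM + 1) scale the added 1 shrinks differences at such low levels. Doc2g, at a higher level, was 13.0% lower in PS with a log2 difference of -0.22. Tbr1, also a gene of deep-layer neocortical neurons, measured 12.4, 16.0 and 10.4 FPKM in control and 13.0, 13.3 and 11.2 in PS libraries, a set of values that overlapped throughout (log2 difference -0.03, SE 0.13, 95% interval from -0.33 to 0.28, adjusted p = 0.996). The sign of the Tbr1 difference turned without control library 2 (0.13) and without PS library 3 (0.043).

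Eomes and Tbx21 are also genes of T and natural killer cells, and Eomes of a cerebellar interneuron. The other 8 lymphocyte markers examined, Cd3e among them, each had a mean under 0.1 FPKM and summed to 0.022 to 0.107 FPKM in control and 0.141 to 0.249 in PS libraries. These sums, higher in PS, rest on values near 0, and Tbx21 lay between 0.509 and 1.04 FPKM. The part of lymphocytes in the Eomes and Tbx21 values was not tested. Of 15 cerebellar markers, the 14 with a mean of at least 1 FPKM had positive differences (median 0.15 on the log2 scale, none called), while Barhl1, tested at a mean of at least 0.1 FPKM, had one of -0.07 (unadjusted p = 0.629). The lowest p was for Cbln1, a synapse organizer gene of granule cells, at 44.7 ± 7.88 and 58.3 ± 9.14 FPKM (unadjusted p = 0.0208, adjusted p = 0.717). The summed level of that list was 490.1 to 515.4 FPKM in control and 474.1 to 679.2 in PS libraries. The part of cerebellar content in the Eomes values was not tested.

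Calb2 encodes calretinin, a calcium-binding protein of many periglomerular and granule cells and of interneurons and other cells elsewhere in the brain. It measured 107.6, 94.8 and 114.8 FPKM in control and 108.4, 111.1 and 107.7 in PS libraries. It ran against the other genes in control, where library 2 was the lowest, and its groups differed by 0.05 on the log2 scale (SE 0.074, 95% interval from -0.12 to 0.22, limma adjusted p = 0.98). Without control library 2 the difference was -0.027. Sp8, a zinc-finger transcription factor that immature and periglomerular interneurons use, measured 1.61, 2.79 and 1.54 FPKM in control and 1.32, 2.24 and 0.966 in PS libraries. Here too library 2 was the highest of each group and PS library 3 the lowest of all (log2 difference -0.26, SE 0.20, 95% interval from -0.71 to 0.20, adjusted p = 0.951). The mean of Sp8 was 23.8% lower in PS.

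Most of the genes shared a part of their order across libraries. In 7 of the 8, all but Calb2, library 2 was the highest of its group in both control and PS, against 12.5% of the 12229 genes with a mean of at least 1 FPKM and 11.8% of the 16542 with at least 0.1. In Omp, Cdhr1 and Sp8 the order of all 6 libraries was the same, from PS 3 up through PS 1, control 3, control 1 and PS 2 to control 2. The mean deviation of Cdhr1, Doc2g, Eomes and Tbx21 from their own averages was 0.015, 0.427 and -0.072 on the log2 scale in control libraries 1 to 3 and -0.217, 0.203 and -0.357 in PS libraries 1 to 3. Eomes departed from the others of this mean in PS library 2, at -0.089 where Cdhr1 was at 0.409 and Doc2g at 0.373. Omp and Sp8, which did not enter this mean, followed it with Pearson correlations of 0.989 and 0.994 over 6 libraries, Tbr1 with 0.757 and Calb2 with -0.584. The correlations describe these 6 libraries, and what lies behind them was not tested. In bulk RNA such as this, fewer cells of a type and less RNA per cell cannot be told apart.

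**Figure D2:**
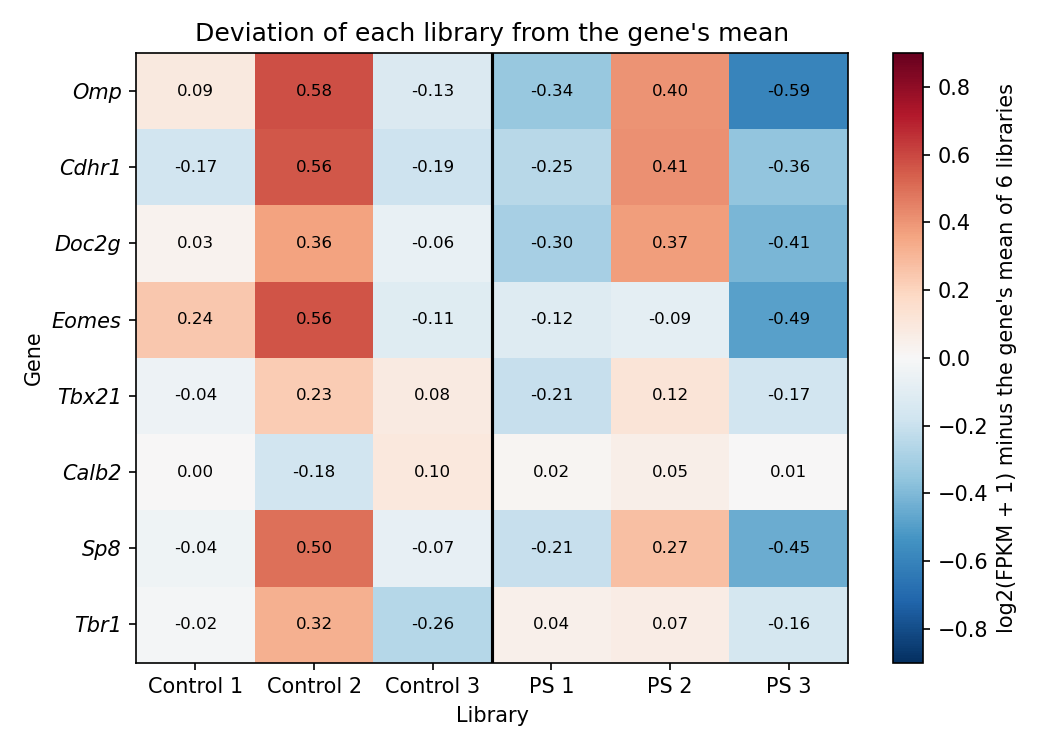
Each cell gives the log2(FPKM + 1) value of a gene (rows) in a library (columns) minus the mean of that gene over 6 libraries, with red for above and blue for below; the vertical line parts control from PS. Control 2 is above the mean in every gene except Calb2, and PS 3 is below it in every gene except Calb2.

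Some genes outside the set had a similar profile. Among 830 other genes with a mean of at least 1 FPKM and an SD over libraries of at least 0.2, the 8 named genes closest to the mean of Cdhr1, Doc2g, Eomes and Tbx21 were Sp7 (r = 0.991 over 6 libraries), Dlx1 (0.986), Atp6ap1l (0.965), Gng4 (0.964), Kcnf1 (0.951), Dlx2 (0.946), Lgr6 (0.943) and Klf5 (0.941). Dlx1, a homeobox gene of forebrain inhibitory neurons, measured 8.02, 11.2 and 6.89 FPKM in control and 6.46, 10.1 and 5.64 in PS libraries, and Gng4, a G protein subunit gene, 27.1, 37.7 and 26.4 in control and 24.97, 33.4 and 24.6 in PS. None of the 8 was called (limma adjusted p from 0.903 to 0.985). Only 5 of the 830 reached a correlation of 0.95, and 9 reached that size with the opposite sign.

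Lists of markers for the cell types around these genes followed the pattern unevenly. Of 17 further bulb interneuron genes with a mean of at least 1 FPKM, library 2 was the highest of both groups in 10, and their mean deviation was 0.227 in control 2 and 0.071 in PS 2 against -0.113 to -0.046 in the other libraries. Some of them, such as Gad1 and Gad2, are also among the genes of cortical and hippocampal interneurons. The part of other regions in the values of this list was not tested. In PS, 13 of these 17 had negative and 4 positive differences, with a median of -0.04 and none called. Calb1, the calbindin gene, had the lowest unadjusted p (0.0947) and was higher in PS, but it is also among the cerebellar markers. It measured 93.4, 90.8 and 95.5 FPKM in control and 117.6, 91.7 and 105.3 in PS libraries. Of 10 further mitral and tufted genes, most of them used in other brain regions too, 2 had negative and 8 positive differences (median 0.10, none called). Their mean deviation was -0.085 in control 2 and 0.079 in PS 2 against -0.035 to 0.066 in the other libraries, and library 2 was the highest of both groups in 3 of the 10. One of those 2, Nmb, the neuromedin B gene, measured 6.15, 9.02 and 6.02 FPKM in control and 4.84, 8.85 and 5.20 in PS, and Slc17a6, a vesicular glutamate transporter gene that thalamus and midbrain share, 32.2, 15.8 and 31.5 in control and 32.5, 26.3 and 29.5 in PS. Nmb and Slc17a6 were picked after their values were seen, and their orders were opposite, with library 2 highest for Nmb and lowest for Slc17a6 in both groups. Of 5 genes with a mean of at least 1 FPKM of olfactory ensheathing glia, which wrap the sensory axons, 3 were higher and 2 lower in PS (median 0.15, none called). Ngfr, the p75 neurotrophin receptor gene, had the lowest unadjusted p of that list (0.0719), at 1.34 ± 0.471 and 1.90 ± 0.442 FPKM. Npy, among the 2 lower genes of that list, is also among the genes of cortical and hippocampal interneurons. The part of other cells in the values of the ensheathing glia list was not tested. The median over all 12229 genes tested was 0.003.

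Other regions differed between libraries as well. The mean deviation of 14 neocortical genes without Tbr1 was 0.128 in control 2 and 0.056 in PS 2, against -0.088 to 0.012 elsewhere, and 6 of the 14 were highest in library 2 of both groups. That list was balanced between groups, with 8 genes lower and 6 higher in PS (median -0.01, none called; lowest unadjusted p 0.133, for Foxp2). Of 10 genes of cortical and hippocampal interneurons without Calb2 and Sp8, 4 were lower and 6 higher (median 0.02, none called). Prox1, a homeobox gene of some of these interneurons and of dentate granule cells, had the lowest p of that list, at 3.60 ± 0.0755 and 4.30 ± 0.243 FPKM (unadjusted p = 0.0153, adjusted p = 0.674). Cerebellar genes had another profile, with 0.358 in PS 1 and -0.178 in PS 2. No list of markers taken without the 8 genes repeated, in its mean deviation, the full order seen for Omp, Cdhr1 and Sp8. That order was also seen in the mean of Cdhr1, Doc2g, Eomes and Tbx21. Among the genes named for their likeness to that mean, Dlx1, Atp6ap1l, Gng4 and Kcnf1 had it too. The part of how each brain was cut or sampled in the differences between libraries was not tested.

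**Figure D3:**
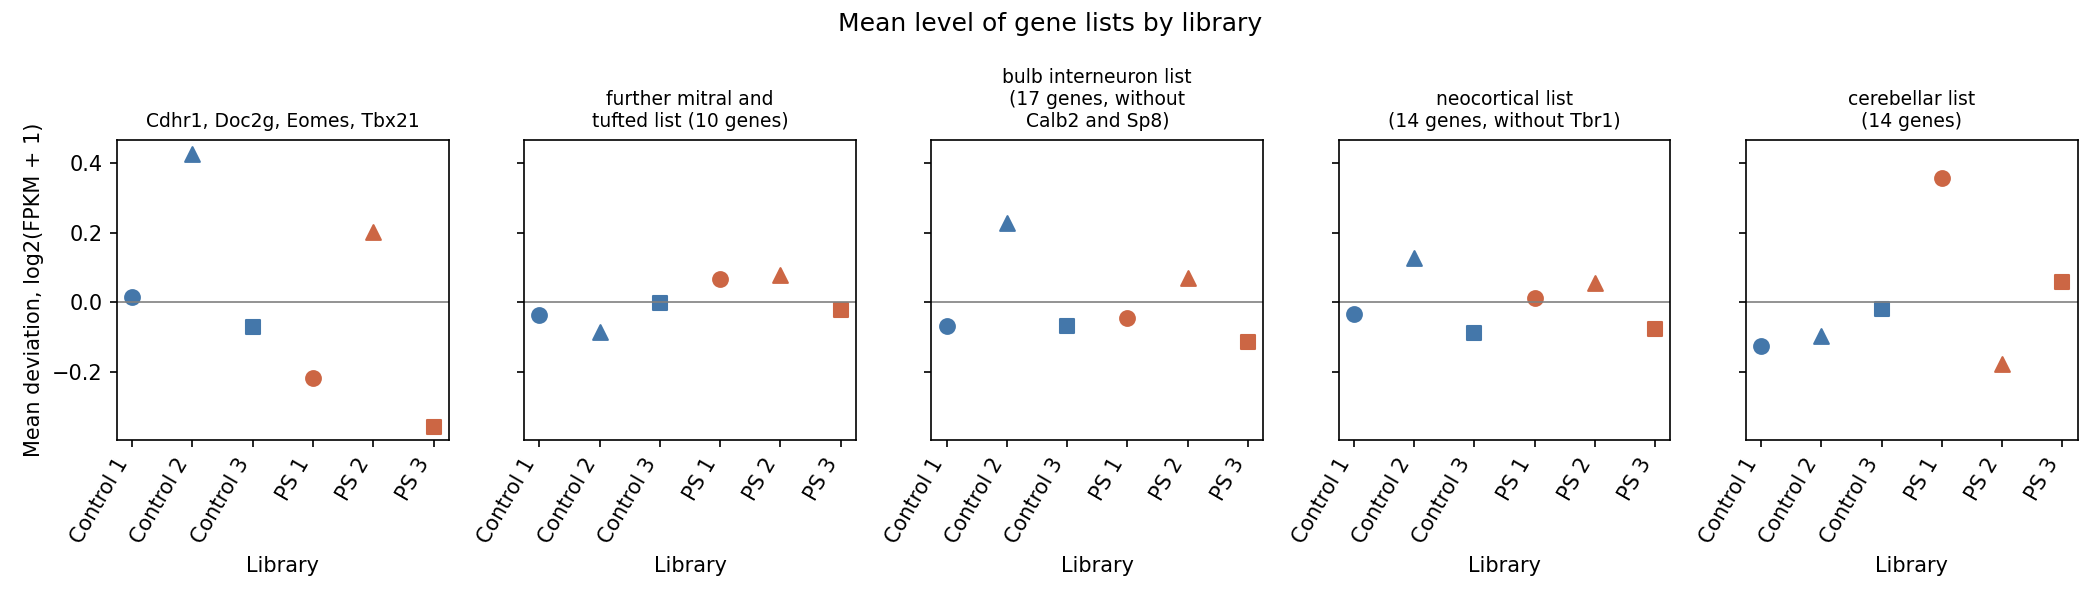
Mean deviation in log2(FPKM + 1) from each gene's average over 6 libraries (vertical axis) for Cdhr1, Doc2g, Eomes and Tbx21, for 10 further mitral and tufted genes, for 17 further bulb interneuron genes, for 14 neocortical genes and for 14 cerebellar genes, by library; symbols give the library number and colours the group. The first 4 genes range from -0.357 in PS 3 to 0.427 in control 2, while the 10 further mitral and tufted genes range from -0.085 in control 2 to 0.079 in PS 2.

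Between exposed and control brains, 7 of the 8 bulb genes had a negative difference (PS lower), beside 48.6% of all genes at a mean of at least 1 FPKM, and none passed the test. Over all genes, 0.164% of the 12229 tested at a mean of at least 1 FPKM were called at an adjusted p under 0.05, and 0.0907% of the 16542 tested at a mean of at least 0.1. At an unadjusted p under 0.05, 1 of the 8 (Eomes) was counted, against 5.94% of all genes. The 3 PS values overlapped the 3 control values in all 8, where 11.3% of genes at a mean of at least 1 FPKM and 11.2% at 0.1 showed no overlap. The median difference of the 7 genes in the main test was -0.22 on the log2 scale, beside 0.003 over all genes. Limma-voom on the recovered reads called none of the 7 genes at a mean of at least 1 FPKM, nor Tbx21, against 0.237% of genes. In that fit, Eomes had a log2 difference of -0.59 (unadjusted p = 0.0193, adjusted p = 0.725), and Omp -0.51 (adjusted p = 0.929). Sp8 and Tbx21 were both at -0.42 by limma-voom (adjusted p = 0.932 and 0.922).

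Set side by side by replicate number, PS was lower than control in every number for Omp, Cdhr1, Eomes, Tbx21 and Sp8, 5 of the 8, against 14.5% of all genes with a mean of at least 1 FPKM and 14.2% with at least 0.1. Eomes was 27.1%, 42.8% and 30.5% lower in PS in numbers 1, 2 and 3, and Omp 34.4%, 13.95% and 38.8% lower. Sp8 was 17.9%, 19.7% and 37.5% lower, and Cdhr1 5.42%, 10.4% and 11.9%. With the replicate number as a block, the standard error of Omp went from 0.25 to 0.085 and that of Cdhr1 from 0.24 to 0.065. The unadjusted p was then under 0.05 for Omp, Doc2g, Eomes, Tbx21 and Sp8, 5 of the 8 in place of 1, against 7.76% of all genes, and the lowest adjusted p were 0.0609 for Eomes and 0.186 for Omp. None of the 8 was called with the block, where 0.393% of genes at a mean of at least 1 FPKM and 0.103% at 0.1 were. The pairing rests on how the libraries deviate and not on the labels, and these genes are among those that deviate together. With library 2 left out of both groups (2 against 2, chosen after seeing the data), Doc2g differed by -0.34 (unadjusted p = 0.00271, adjusted p = 0.53), Omp by -0.45 (0.00614 and 0.727) and Eomes by -0.37 (0.043 and 0.987), and none was called, against 0.0327% of genes. At an unadjusted p under 0.05, 5 of the 8 were then counted, against 4.97% of genes. Library 2 was the highest of both groups in 7 of the 8, so the choice itself alters the spread of these genes. Because they also deviate together, the 5 are not separate results.

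**Figure D4:**
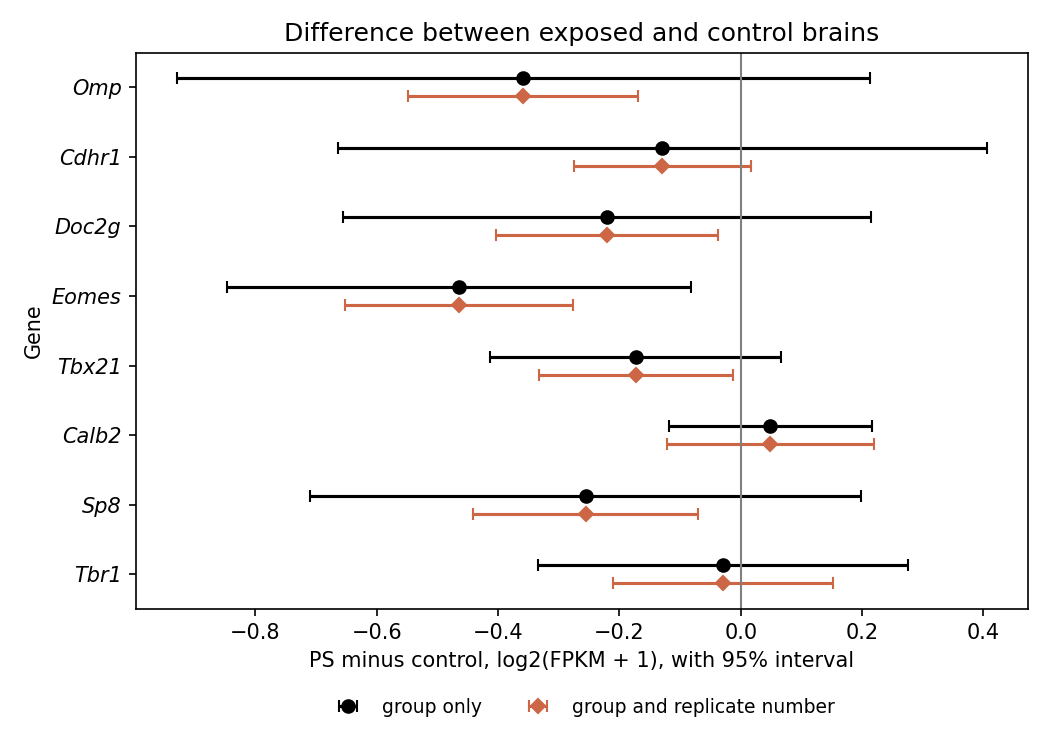
PS minus control on the log2(FPKM + 1) scale (horizontal axis) with 95% interval for each gene, from the fit with group only (black circles) and from the fit with the replicate number as a block (orange diamonds). The block narrows the intervals of 7 genes and slightly widens that of Calb2. On this scale the added 1 shrinks differences of genes at low levels.

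Ratios between the genes within a library were also taken. Omp and Sp8 kept nearly the same ratio in all libraries, with a log2 ratio from 0.591 to 0.915 (SD 0.124 over 6), although each ranged widely on its own (SD 0.614 and 0.543 on the log2 FPKM scale). The SD of that ratio was the lowest of the 28 pairs, and that of Cdhr1 to Doc2g the next lowest, so these are extremes of many pairs. The log2 ratio of Cdhr1 to Doc2g had an SD of 0.157 over 6, and was -0.628, -0.186 and -0.541 in control and -0.354, -0.357 and -0.354 in PS. The log2 ratio of Cdhr1 to Eomes varied more (SD 0.363) than that of Cdhr1 to Tbr1 (SD 0.276). Of 28 pairs, many of which share a gene, the groups did not overlap in 2, a smaller share than the 11.3% of single genes without overlap. Both pairs are given as a description only, picked after their values were seen. The log2 ratio of Eomes to Tbr1 was -1.511, -1.494 and -1.700 in control and -2.036, -2.029 and -2.335 in PS, and that of Cdhr1 to Sp8 was 2.650, 2.642 and 2.688 in control and 2.853, 2.800 and 3.181 in PS. No test was run on the ratios.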

How the data were processed

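RNA-seq tables of 6 whole-brain libraries, 3 control and 3 PS, were grouped by their labels. The authors deposited FPKM values, 1 table per library. The submitters' processing notes name fastp, HISAT2, HTSeq, R 3.2.0 and GRCm39 but no settings, so whether counting used strand is unknown here. Reads behind the values were recovered from their whole steps (99.99% of 26556 genes whole within 0.02 reads). They served for depth, the read numbers of genes, the noise between replicates and limma-voom. Replicates of a group differed beyond sampling noise (chi-square per degree of freedom from 8.03 to 29.3).

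Values were taken as log2(FPKM + 1), without rescaling, and compared with limma 3.58.1 in R 4.3.3 (group only, variance trend, two-sided, Benjamini-Hochberg over all genes with a mean of at least 1 FPKM, 12229, or at least 0.1, 16542, for Tbx21). Calls needed an adjusted p under 0.05. The pipeline was tested on simulated data. Same-numbered libraries deviated together from their group means (correlations of 0.181, 0.185 and 0.161 over genes, other pairs from -0.217 to 0.025), so a fit with the replicate number as a block was run. The labels do not state that pairing. Deviations from a group mean cancel over the libraries of the group, so positive values for same-numbered pairs by themselves lower those of the other pairs.

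Alternatives were other pseudocounts, filters, scalings and variance models, the block, limma-voom, each library left out, a rule of unadjusted p under 0.05 with 1.5-fold, and, added after seeing the data, both libraries numbered 2 left out. All 8 genes are named, with, of each marker list, the tested gene of lowest p, the most abundant where a list's level is given, and the 8 genes most like the mean of Cdhr1, Doc2g, Eomes and Tbx21. Other list genes were named after their values were seen or as defining markers. The genes and lists were chosen with earlier results of these data known. Upstream sequences matched 6 of the 8 genes, Omp and Calb2 not among them. One list gene, Cyp2g1, was not analysed here.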

Additional observations from a re-analysis of the deposited data

How the results depend on the processing

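None of the 8 bulb genes was called under any alternative. Omp, Doc2g, Eomes, Tbx21 and Sp8 stayed lower in PS in every one tried, from -0.65 (without PS replicate 2) to -0.15 (without PS replicate 3) for Omp and from -0.64 (without control replicate 3) to -0.30 (without control replicate 2) for Eomes on the log2 scale. Under the rule of unadjusted p with 1.5-fold, Eomes passed on p (limma, 0.0227) but not on fold. That fold was taken on the log2(FPKM + 1) scale (-0.46), where the added 1 shrinks differences. The ratio of its PS to control means in FPKM was 0.6535, beyond 1.5-fold. With a library left out, Cdhr1 ran from -0.37 to 0.12 (sign turned without control replicate 2, and 0.016 without PS replicate 3), Tbr1 from -0.17 to 0.13 (sign turned without control replicate 2, and 0.043 without PS replicate 3) and Calb2 from -0.027 (without control replicate 2) to 0.11. With neither library numbered 2, Tbr1 was 0.083 and Calb2 -0.040. The number of genes called in all, 20 of those at 1 FPKM or more, was 48 with the replicate block, 1 with every gene above 0, 9 at a mean of at least 5 FPKM, 44 by unadjusted p with 1.5-fold, 4 with neither library numbered 2, and from 0 (without PS replicate 2) to 66 (without control replicate 3) with a library left out. At 0.1 FPKM or more it was 15, and 30 by limma-voom, 1 with every gene above 0, 46 by unadjusted p with 1.5-fold, 2 with neither library numbered 2, and from 0 to 40 with a library left out. The replicate block gave 17 there. Fewer samples or other gene numbers enter several of these fits, and otherwise the cause was not tested. Depth limits Tbx21 most.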
